A study of Rattus norvegicus with 70 samples.

Results

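The Hox genes were followed across 3 fat depots of rats that entered exposure in adolescence. Members were all genes of the 6 count tables whose rat symbol, looked up by NCBI gene number, is Hoxa, Hoxb, Hoxc or Hoxd followed by a paralogue number. They were 25 of the 15319 genes in the tables, out of 39 such genes in RefSeq, and the others were not analysed here. The Hoxa cluster on chromosome 4 gave 7 members (among them Hoxa2, Hoxa4, Hoxa6, Hoxa7, Hoxa11 and Hoxa13), and the Hoxb cluster on chromosome 10 gave 6 (Hoxb3, Hoxb4, Hoxb5, Hoxb7, Hoxb8 and Hoxb9). The Hoxc cluster on chromosome 7 gave 6 (Hoxc4, Hoxc5, Hoxc8, Hoxc9, Hoxc10 and Hoxc11), as did the Hoxd cluster on chromosome 3 (Hoxd1, Hoxd3, Hoxd4, Hoxd9, Hoxd10 and Hoxd13).

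RNA-seq libraries were made from 24 Sprague-Dawley rats, an outbred stock, with no engineered allele. The depots were brown fat (BAT), subcutaneous fat (SAT) and visceral fat (VAT). One set of rats inhaled PCB 52, a chlorinated biphenyl found in indoor air, by nose (28 days, 4 h on each), and the other set was sham. Males entered exposure at 39 days of age and females at 42 days, which means that sex and starting age cannot be told apart. The 12 groups were PCB 52 and sham of each sex in each depot, with 6 libraries each, except male VAT PCB 52 and female SAT sham with 5. Which subcutaneous or visceral pad was cut is not given in the sources used here, and nothing says that libraries of one group were other than single rats.

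Hox genes encode homeodomain transcription factors that give cells along the body axis their position during development. Within a cluster the genes lie in the order of their paralogue numbers, and low-numbered genes are used from the hindbrain and neck backward while high-numbered ones are used toward the trunk, limbs and tail. Adult fat depots keep part of this positional pattern in their stromal cells and adipocytes. Hox proteins bind DNA together with PBX and MEIS cofactors, and the miR-196 genes, which lie inside 3 of the clusters, are known to target several Hox messages.

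The stretch of 250 bases before the start is shown for 3 genes of the Hoxa cluster, because 2 of them were higher and 1 was lower in BAT than in SAT of both sexes although they lie in one cluster. Sequences are RefSeq's on build GRCr8, all on the minus strand and written 5′ to 3′, and capitals mark ATTA, the core letters of many homeodomain sites. The higher ones were Hoxa2 (chr4:82595693-82595942) and Hoxa4 (chr4:82622303-82622552), and Hoxa11 (chr4:82676802-82677051) had no read in sham BAT.
Hoxa2: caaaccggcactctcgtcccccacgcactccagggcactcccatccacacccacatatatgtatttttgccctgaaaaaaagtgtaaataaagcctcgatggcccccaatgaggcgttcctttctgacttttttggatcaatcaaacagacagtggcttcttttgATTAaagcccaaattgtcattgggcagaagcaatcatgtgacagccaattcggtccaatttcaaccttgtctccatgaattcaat
Hoxa4: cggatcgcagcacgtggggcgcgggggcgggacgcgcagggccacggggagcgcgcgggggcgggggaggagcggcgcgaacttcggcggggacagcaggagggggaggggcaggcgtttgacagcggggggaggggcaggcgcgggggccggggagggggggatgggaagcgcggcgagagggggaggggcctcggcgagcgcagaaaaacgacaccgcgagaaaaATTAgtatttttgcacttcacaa
Hoxa11: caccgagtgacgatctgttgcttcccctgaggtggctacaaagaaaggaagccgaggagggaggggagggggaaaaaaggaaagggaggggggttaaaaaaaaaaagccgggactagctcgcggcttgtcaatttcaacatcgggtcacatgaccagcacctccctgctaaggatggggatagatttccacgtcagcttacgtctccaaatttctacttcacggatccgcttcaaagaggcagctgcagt

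Of the 25 genes, 13 had an entry in the RefSeq promoter table. ATTA, read on both strands, was in 6 of these 13 stretches, against 56.97% of all 33469 promoters in the table, and CCAAT was in 8 of 13, against 34.02%. TGATNNAT was in 1 of 13, against 7.96%, and TTTATNG in none of the 13, against 10.11%. The 13 stretches held a median of 21 CG dinucleotides (range 3 to 39), against 5 over all promoters, and Hoxa2 with 6 and Hoxa11 with 11 lay below Hoxa4 with 32. ATTA occurred once in Hoxa2 and once in Hoxa4 and was not among the letters of the Hoxa11 stretch.

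The 3 miR-196 precursors lie in the Hoxa, Hoxc and Hoxb clusters and their 5p products share a seed, bases 2 to 8, in capitals here. They are shown because the row of Mir196b, like Hoxc10, had no read in sham BAT.
rno-miR-196b-5p: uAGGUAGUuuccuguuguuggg
rno-miR-196a-5p: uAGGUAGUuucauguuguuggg
rno-miR-196c-5p: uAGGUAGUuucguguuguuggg

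Total counts per library ran from 4604116 to 9707132, with a median of 7113976, and levels are given as CPM, which are counts scaled to a common normalised library size. A count of 3 reads equals 0.309 to 0.652 CPM, so levels under 1 CPM rest on few reads. The depots bore out their labels on marker genes: 5 of 6 listed brown adipocyte markers were in the tables, and their summed level had group medians of 8477 to 9363 CPM in BAT, against 17.7 to 56.7 CPM in SAT and VAT. The 10 mammary epithelium markers had group medians of 6908 to 77455 CPM in SAT, and the 10 skeletal muscle markers 10201 to 23081 CPM in BAT. The mesothelium gene Wt1 was at 0 in every BAT library and at 8.71 to 63.6 CPM in VAT.

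A set of 8 libraries is treated apart, because of their marker genes. In female SAT sham, animal 8 had a summed adipocyte marker level of 67874 CPM, against 3163 to 6820 CPM in the others of its group, and 713 of 10380 expressed genes were at 0 reads. Male VAT PCB 52 animal 13 had 560 genes at 0, but only 1, 0, 0 and 1 of them on chromosomes 3, 4, 7 and 10, which hold the Hox clusters. Female SAT sham animal 8 had 44, 42, 36 and 50 genes at 0 on these chromosomes. In male VAT, PCB 52 animals 13 and 23 and sham animal 11 had 99.1, 303.8 and 196.7 CPM of male tract markers, against at most 0.46 CPM in the other male VAT libraries. Female VAT sham animals 4 and 8 had 611.3 and 328.9 CPM of brown adipocyte markers, against 43.5 to 63.1 CPM in the other 4 sham rats, female BAT PCB 52 animal 24 had 195.1 CPM, against at least 3902 CPM in all other BAT, and male SAT PCB 52 animal 19 had 308.9 CPM. Results that rest on these 8 are given with and without them. In such tissue libraries fewer cells of a type and less RNA per cell cannot be told apart.

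**Figure D1:**
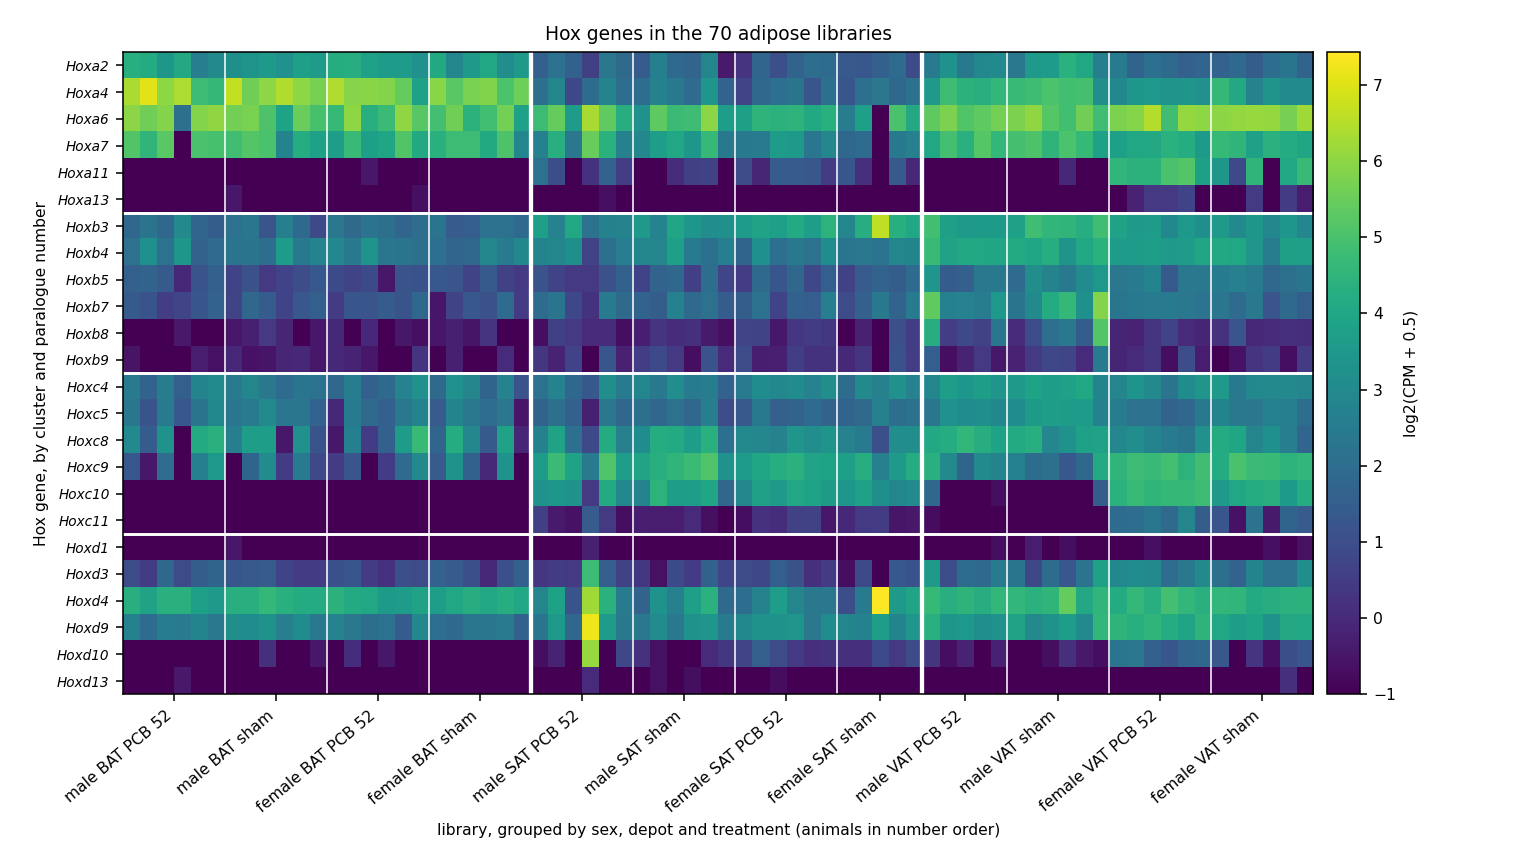
Level of 24 of the 25 Hox genes (rows, by cluster and paralogue number) in each of the 70 libraries (columns, by depot, sex and treatment), as log2(CPM + 0.5). The high-numbered genes Hoxa11, Hoxc10 and Hoxc11 are dark in BAT of both sexes and in most male VAT libraries, and light in most female VAT libraries.

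Taken as shares of the reads of the Hox genes in the tables, the high paralogues were low in BAT of both sexes and in male VAT. The Hoxa cluster was high in BAT. Paralogues 9 to 13 held a median of 4.63% of Hox reads in male BAT sham and 3.83% in female BAT sham. They held 28.1% in male SAT sham and 28.8% in female SAT sham. In VAT the sexes stood apart, with 6.02% (range 4.16 to 15.1%) in male sham rats and 28.2% (21.6 to 34.5%) in female sham rats, and the same order was seen after PCB 52, with 7.65% in males and 36.9% in females. The Hoxa cluster held 69.0% of Hox reads in male BAT sham and 68.6% in female BAT sham, against 30.8% in male SAT sham, 19.98% in female SAT sham, 45.5% in male VAT sham and 45.7% in female VAT sham. These shares are descriptions of the same 25 genes over groups and carry no test. They depend on which genes are present, since 7 of 16 RefSeq genes of paralogues 9 to 13 and 4 of 11 Hoxa genes are missing.

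Of the 25 genes, 22 passed the filter on low counts in the joint analysis of the 70 libraries. Hoxa13 with 44 reads in all, Hoxd1 with 10 and Hoxd13 with 12 did not. Hoxa11, Hoxb8, Hoxb9, Hoxc10, Hoxc11 and Hoxd10 passed only through groups in which they were high, so counts over the tested genes describe them and support nothing about the clusters. Differences were tested with edgeR's quasi-likelihood test over 12616 genes, and a gene is called where its adjusted p (Benjamini-Hochberg) is under 0.05. Fold changes are log2 values with standard errors (SE).

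Between BAT and SAT of sham rats, Hoxa2 and Hoxa4 were higher in BAT of both sexes. Hoxa11, Hoxc9, Hoxc10, Hoxc11 and the low-numbered Hoxb3 were lower in BAT of both sexes. In males 2 of 22 tested genes were higher and 5 lower in BAT, against 49.5% of all genes called, 21.4% higher and 28% lower. In females 5 were higher and 8 lower, against 55.2% of all genes called, 22.5% higher and 32.7% lower. These counts lay near or below the shares over all genes and are no result about the Hox genes as a set. All higher calls were in the Hoxa cluster, Hoxa2 and Hoxa4 in males and, among others, Hoxa2, Hoxa4, Hoxa6 and Hoxa7 in females. Over all genes the median difference was -0.16 in males and -0.18 in females on the log2 scale.

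Hoxa4, a gene of the neck and upper trunk in the embryo, had 48.3, 63.5 and 101 CPM (lowest, median, highest) in male BAT sham, against 2.66, 4.17 and 10.3 CPM in male SAT sham. It had 32.7, 49.96 and 60.8 CPM in female BAT sham, against 1.91, 3.72, 4.54, 3.12 and 3.92 CPM in female SAT sham. No BAT library overlapped a SAT library of its sex in the sham groups. The log2 difference was 3.74 (SE 0.39, adjusted p = 1.1e-11) in males and 3.81 (SE 0.43, adjusted p = 6.8e-11) in females. The count of Hoxa4 is uncertain, because it lies within the span of Hoxa3 and whether strand was used in counting is not known.

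Hoxa2, which patterns the hindbrain and the second pharyngeal arch, had 8.65, 10.5 and 13.1 CPM in male BAT sham, against 0.266, 3.02 and 6.84 CPM in male SAT sham. Female BAT sham had 7.05, 11.1 and 16.7 CPM, against 2.03, 1.92, 2.50, 3.33 and 1.42 CPM in female SAT sham. BAT was higher by 1.58 (SE 0.37, adjusted p = 0.00037) in males and by 2.38 (SE 0.41, adjusted p = 1.7e-06) in females, with no overlap in either sex. Hoxa7, a trunk gene, was called in females alone, at 2.61 (SE 0.57, adjusted p = 8.6e-05), and stood at 0.83 in males. Whether the sexes differ in it is given by the test of the difference itself, in which Hoxa7 was not called. Hoxa6 (1.25, adjusted p = 0.028) was also called in females, and had an adjusted p of 0.065 without the 8 libraries treated apart.

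Hoxc10, a gene of the lumbar region and hindlimb, had 0 reads in all 24 BAT libraries. In SAT it stood at 3.06, 12.5 and 21.2 CPM in male sham rats and at 10.3, 13.8, 8.63, 6.86 and 7.48 CPM in female sham rats. Set against a floor of 3 reads over the BAT group, BAT was at least 123-fold lower than SAT in males and at least 94.7-fold lower in females. The adjusted p was 2.6e-07 in males and 4.5e-07 in females.

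Hoxa11, which patterns the zeugopod of the limb and the female reproductive tract, had no read in male or female BAT sham. In SAT it was low, with 0, 0.275 and 1.07 CPM in male sham rats and 1.91, 0.599, 0, 2.08 and 0.475 CPM in female sham rats. BAT was at least 4.76-fold lower in males (adjusted p = 0.023) and at least 11.6-fold lower in females (adjusted p = 0.0022). The male call rests on few reads, since without SAT animal 9 the adjusted p was 0.054. Hoxc11, a neighbour of Hoxc10, was also at 0 in every BAT library and was lower there by at least 2.62-fold in males (adjusted p = 0.011) and at least 4.89-fold in females (adjusted p = 0.0011).

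Hoxb3 and Hoxc9 were lower in BAT of both sexes. Hoxb3, a low-numbered gene of the Hoxb cluster, differed by -1.57 (SE 0.37, adjusted p = 0.00042) in males and -3.25 (SE 0.39, adjusted p = 4.9e-10) in females, and the female value was -2.15 without the libraries treated apart. Hoxc9, a thoracic gene, differed by -2.79 (adjusted p = 0.00048) in males and -1.69 (adjusted p = 0.026) in females, and the female call was lost in 6 of 11 fits with 1 rat left out (adjusted p up to 0.066, without BAT animal 8). In females Hoxd10 had no read in BAT sham (4 reads in 2 of the 12 female BAT libraries in all) and was at least 9.26-fold lower than in SAT (adjusted p = 0.0086), and Hoxb9 differed by -2.20 (adjusted p = 0.031). The Hoxb9 call was lost with the animal as a block (adjusted p = 0.053) and without SAT animal 10 (adjusted p = 0.13). Hoxd4 was called lower in female BAT (-1.32, adjusted p = 0.043), but 1 SAT library decided it. Female SAT sham animal 8 had 171.7 CPM, against 1.55 to 14.7 CPM in the other SAT rats and 12.6 to 18.5 CPM in BAT, and without the 8 libraries the difference turned to 1.02.

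**Figure D2:**
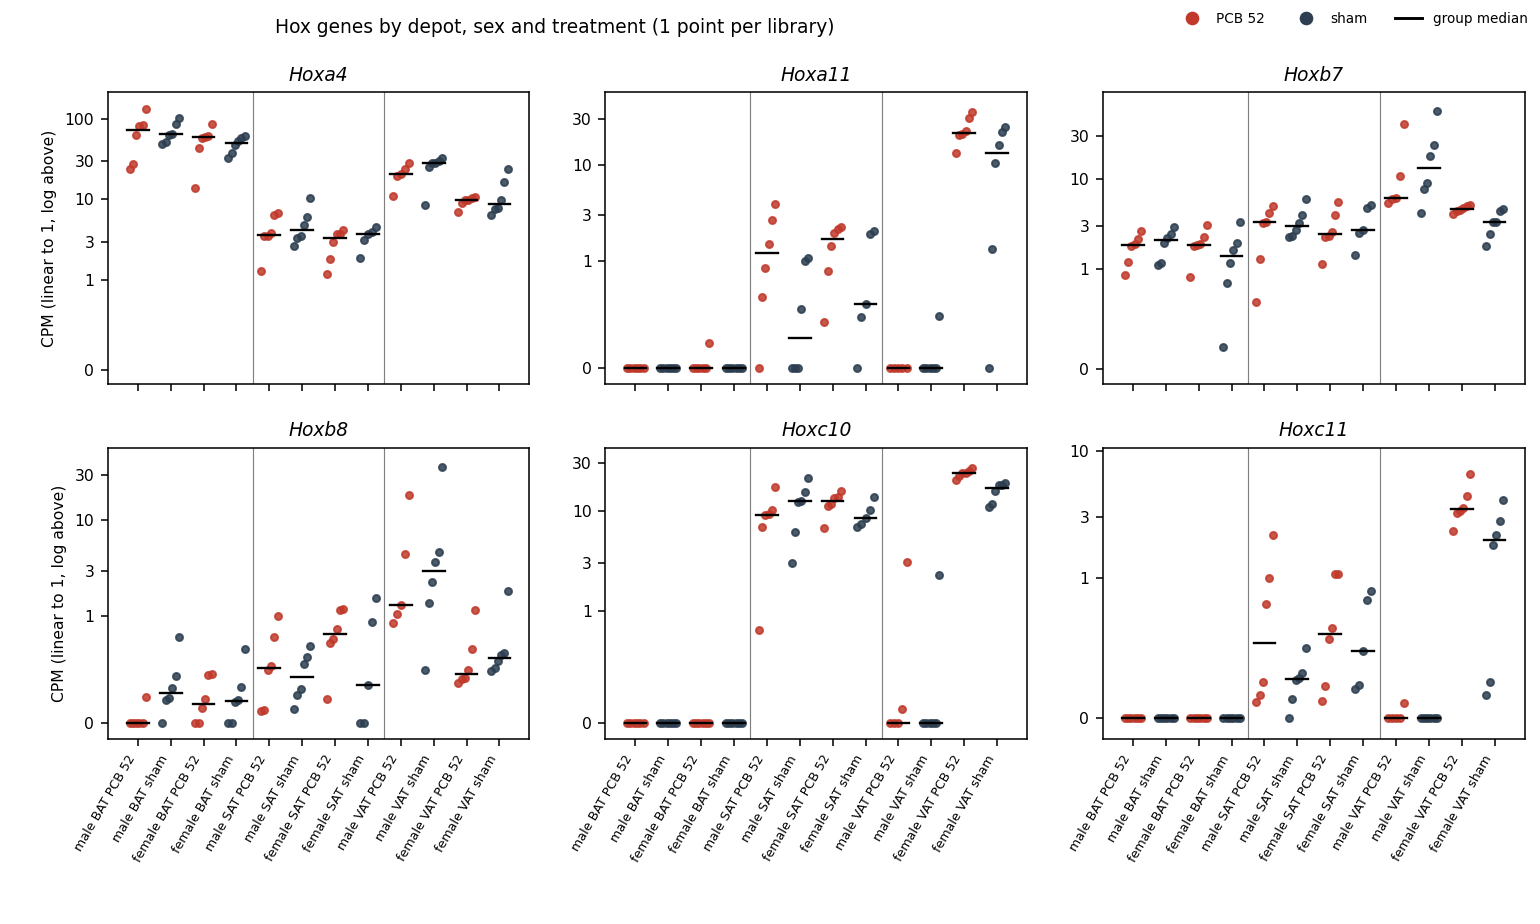
CPM of 6 Hox genes in each library (points), with group medians (bars), by depot, sex and treatment, on an axis that is linear to 1 CPM and logarithmic above it. Hoxa4 is highest in BAT, Hoxa11, Hoxc10 and Hoxc11 lie at or near 0 in BAT and male VAT and are high in female VAT, and Hoxb7 and Hoxb8 reach 57.6 and 35.5 CPM in single male VAT libraries.

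Between BAT and VAT, Hoxa4 was again higher in BAT of both sexes, and Hoxb3, Hoxb4, Hoxb5 and Hoxc10 were lower there in both. In males 1 of 22 genes was higher and 10 lower, against 43.7% of all genes called, 20% higher and 23.7% lower. In females 2 were higher and 9 lower, against 32.5% of all genes called, 17.3% higher and 15.1% lower. In males all 6 Hoxb genes were among the lower ones, and in females 6 of the 7 tested genes of paralogues 9 to 13. Hoxb8 and Hoxb9 among the former, and Hoxa11, Hoxc10, Hoxc11 and Hoxd10 among the latter, passed the filter only through groups in which they were high. These tallies therefore support nothing about a cluster or a paralogue class.

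Hoxa4 had 8.54, 28.2 and 32.3 CPM in male VAT sham and 6.34, 8.74 and 23.9 CPM in female VAT sham. Every sham BAT library lay above every sham VAT library of its sex. BAT was higher by 1.43 (SE 0.35, adjusted p = 0.00073) in males and by 2.00 (SE 0.36, adjusted p = 1.5e-05) in females. Hoxa2 was higher in BAT of females, by 1.90 (SE 0.37, adjusted p = 5.7e-05), and was at -0.11 in males. That difference between the sexes was called in its own test (-2.01, SE 0.51, adjusted p = 0.045), although not with the animal as a block (adjusted p = 0.15).

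Hoxb3 had 1.33, 3.56 and 5.55 CPM in male BAT sham, against 13.5, 22.6 and 28.3 CPM in male VAT sham. Female BAT sham had 2.18, 3.55 and 4.19 CPM, against 6.89, 8.81 and 11.1 CPM in female VAT sham. BAT was lower by -2.71 on the log2 scale (SE 0.38, adjusted p = 3.7e-08) in males and by -1.43 (SE 0.37, adjusted p = 0.002) in females, with no overlap. Hoxb5, also a gene of the neck and thorax, had 0.81, 1.33 and 1.99 CPM in male BAT sham, against 3.35, 7.17 and 10.7 CPM in male VAT sham, and 0.86, 1.51 and 2.10 CPM in female BAT sham, against 2.99, 4.67 and 5.84 CPM in female VAT sham. Its difference was -2.32 (SE 0.39, adjusted p = 1.9e-06) in males and -1.58 (SE 0.38, adjusted p = 0.00093) in females. Hoxb5 overlaps the antisense gene Hoxb5os, which moved the same way (-2.76 in males and -1.68 in females), and the reads of the pair cannot be told apart without strand.

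Hoxb7 and Hoxb8, trunk genes that lie side by side, were lower in male BAT than in male VAT by -3.33 (adjusted p = 2.3e-07) and -4.53 (adjusted p = 1.3e-05). Without the libraries treated apart these values were -2.59 and -2.80, and both stayed called. Hoxb9 (-2.22, adjusted p = 0.016) had an adjusted p of 0.12 without them, and Hoxd3 (-1.64, adjusted p = 0.031) one of 0.077. The male call of Hoxc10 (adjusted p = 0.039) rested on sham animal 11 alone, the one male VAT sham library with Hoxc10 reads, and it was lost with the animal as a block (adjusted p = 0.12).

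In females 6 high-numbered genes were lower in BAT than in VAT. BAT was lower at least 158-fold for Hoxc10, at least 130-fold for Hoxa11, at least 19.99-fold for Hoxc11 and at least 10.7-fold for Hoxd10, each with 0 reads in sham BAT. Hoxc9 (-2.55) and Hoxd9 (-1.86) were lower as well. Adjusted p-values of these 6 genes ran from 2.1e-07 for Hoxc10 to 0.011 for Hoxd10.

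**Figure D3:**
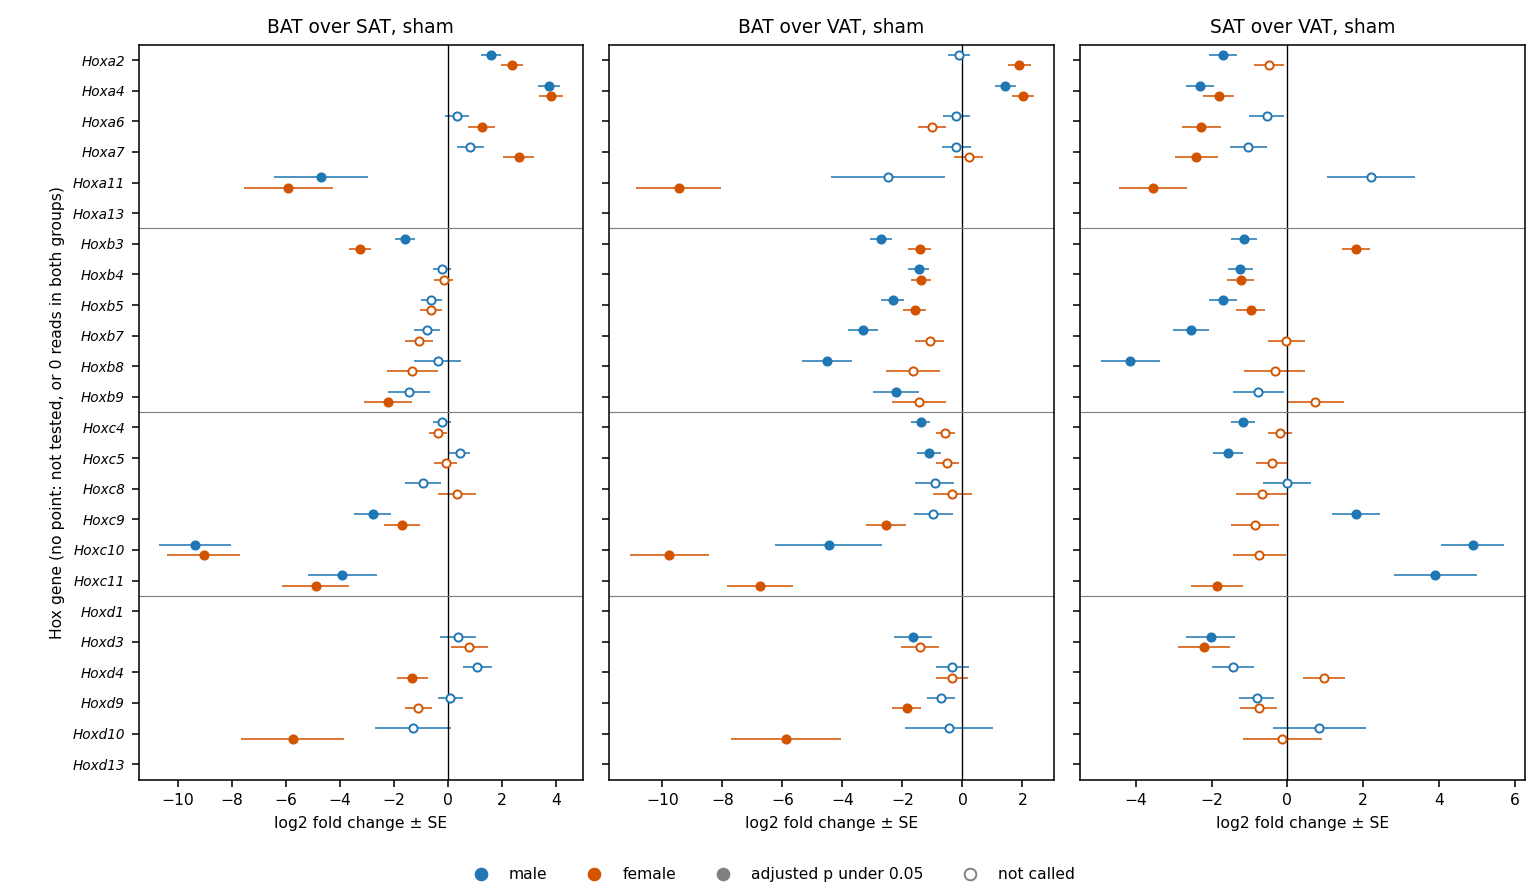
Log2 fold change with SE of 24 Hox genes, where tested, between depots of sham rats, males above females for each gene, with filled points for an adjusted p under 0.05. Hoxa4 lies right of 0 in both BAT panels, and Hoxc10 and Hoxc11 lie right of 0 in males and left of 0 in females in the SAT over VAT panel.

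Between SAT and VAT, 6 of 8 tested genes of paralogues 1 to 4 and 4 of 7 of paralogues 5 to 8 were lower in SAT of males, and 4 of 8 and 3 of 7 in SAT of females. Of 7 tested genes of paralogues 9 to 13, 3 were higher in SAT of males and 2 lower in SAT of females, and Hoxc11 was the one called in both sexes, in opposite directions. Among the 7, Hoxa11, Hoxb9, Hoxc10, Hoxc11 and Hoxd10 passed the filter only through groups in which they were high, so this tally supports nothing about the class. In males 3 of 22 genes were higher in SAT and 10 lower, against 20.6% of all genes called, 11.3% higher and 9.3% lower. In females 1 was higher and 9 lower, against 49.4% of all genes called, 29.5% higher and 19.9% lower. Hoxd3, Hoxa4, Hoxb5 and Hoxb4 were lower in SAT of both sexes. The 3 genes higher in male SAT were Hoxc9, Hoxc10 and Hoxc11.

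Hoxd3, a low-numbered gene of the Hoxd cluster, had 0.145, 1.04 and 2.55 CPM in male SAT sham, against 1.25, 3.83 and 13.5 CPM in male VAT sham. Female SAT sham had 0.119, 1.32, 0, 1.98 and 1.66 CPM, against 2.67, 4.04 and 8.53 CPM in female VAT sham. The difference was -2.02 (SE 0.64, adjusted p = 0.018) in males, where the groups overlapped, and -2.20 (SE 0.68, adjusted p = 0.006) in females, where they did not. Hoxa4 was lower in SAT by -2.31 (adjusted p = 7.9e-06) in males and -1.81 (adjusted p = 0.0002) in females. Hoxb5 was lower by -1.71 (adjusted p = 0.00059) in males and by -0.97 (adjusted p = 0.033) in females, and the female call was lost with the animal as a block (adjusted p = 0.057). For Hoxa4 the 3 depots thus stood in the order BAT, VAT and SAT in both sexes, each neighbouring pair called.

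Hoxc10 was higher in SAT than in VAT of males by 4.90 (SE 0.83, adjusted p = 4e-05), with 0 reads in 5 of the 6 VAT sham libraries and 2.29 CPM in animal 11. Hoxc9 was higher there by 1.82 (adjusted p = 0.031, and 0.077 without VAT animal 7) and Hoxc11, with no read in male VAT sham, by at least 4.05-fold (adjusted p = 0.010). In females Hoxc11 was lower in SAT (-1.86, adjusted p = 0.024, and 0.078 without VAT animal 6), as was Hoxa11 (-3.55, SE 0.89, adjusted p = 0.0011). In females Hoxb3 was called higher in SAT (1.82), a value that fell to 0.64 and lost its call (adjusted p = 0.10) without the libraries treated apart, since animal 8 held 97.7 CPM of Hoxb3 and the other 4 rats of that group 6.81 to 19.03 CPM.

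Between the sexes of sham rats, VAT gave most of the called Hox genes. In VAT 5 of 22 genes were higher in males and 4 lower, against 7.95% of all genes called, 4.46% higher and 3.49% lower. In SAT 1 was higher and 2 lower, against 27.9% of all genes called, 10.4% higher and 17.5% lower. In BAT none were called by edgeR, against 0.0317% of all genes called (0.0159% in each direction), none had an unadjusted p under 0.05, and DESeq2 called 1, Hoxd10, which had no read in female BAT sham. The genes higher in male VAT were Hoxa2, Hoxa4, Hoxb3, Hoxb7 and Hoxb8, and the genes lower were Hoxa11, Hoxc9, Hoxc10 and Hoxc11.

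Hoxc10 had 0, 0 and 2.29 CPM (lowest, median, highest) in male VAT sham, against 11.1, 17.04 and 18.97 CPM in female VAT sham. Its difference was -5.31 (SE 0.84, adjusted p = 4e-05). The male reads were all in animal 11, and without the libraries treated apart, when no male VAT sham library held a read, Hoxc10 stayed called. Hoxc11 had no read in male VAT sham, against 0.167, 2.00 and 4.15 CPM in female VAT sham, so males were at least 31.7-fold lower (adjusted p = 2.1e-05). Every female VAT library, PCB 52 and sham, held reads of both genes.

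Hoxa11 had 0, 0 and 0.482 CPM in male VAT sham, against 0, 13.4 and 25.02 CPM in female VAT sham, a difference of -6.97 (SE 1.1, adjusted p = 2.4e-05). The female sham rats were split. Animals 4 and 8 had 1.33 and 0 CPM, and the other 4 had 10.6 to 25.02 CPM. The same pair had the lowest Hoxc11 of the group, 0.167 and 0.260 CPM, and the lowest Hoxd10, 0 and 0.130 CPM, while their Hoxc10 (16.01 and 18.97 CPM) and Hoxc9 (31.4 and 25.5 CPM) were within the range of the others or above it. Their summed mesothelium markers (5 of 8 listed genes) were 64.1 and 67.2 CPM, against 149.0 to 580.0 CPM in the other 4, and their brown adipocyte markers were raised as given above. The part of these cells in the result was not tested. Hoxa13, the most posterior Hoxa gene, was too low to test, but 10 of the 70 libraries held reads of it and 7 of these were among the 12 from female VAT.

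A list of 10 uterus, oviduct and ovary markers, added after the data were seen, had 8 genes in the tables. Their sum was 116.5 to 365.1 CPM in female VAT sham, against 15.7 to 188.0 CPM in male VAT sham. Of the 8 genes only Fshr was at 0 in all female VAT, and all 8 had reads in male VAT. Most of the sum was Star, a steroidogenic gene, with a median of 260 CPM in female VAT sham against 3.87 CPM in male VAT sham. Animals 4 and 8 had 261.7 and 245.7 CPM of the sum, within the range of the other female sham rats. Since most of the sum was Star, it cannot show whether these rats differed in uterus or oviduct tissue. The part of such tissue in the Hoxa11 levels was not tested.

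Hoxb7 had 4.22, 13.4 and 57.6 CPM in male VAT sham, against 1.82, 3.32 and 4.63 CPM in female VAT sham, a difference of 2.58 (SE 0.48, adjusted p = 0.00016). Hoxb8 had 0.497, 2.99 and 35.5 CPM, against 0.488, 0.606 and 1.83 CPM, a difference of 3.35 (SE 0.75, adjusted p = 0.0019). The highest male library was animal 11 for both. Without the 8 libraries Hoxb7 stood at 1.75 (adjusted p = 0.0062) and Hoxb8 at 2.06 (adjusted p = 0.048), and with animal 11 alone left out Hoxb8 had an adjusted p of 0.14.

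Animal 11 was not alone in this pattern. Of the male VAT PCB 52 rats, animal 13 had 40.9 CPM of Hoxb7, against 5.97, 6.12, 5.41 and 10.7 CPM in the others, and 18.4 CPM of Hoxb8, against 0.937, 1.33, 1.06 and 4.48 CPM. Both libraries also held most of the male VAT reads of Hoxc10 (2.29 CPM in animal 11 and 3.09 CPM in animal 13, against at most 0.118 CPM elsewhere) and the lowest Hoxa4 of their groups (8.54 and 11.1 CPM). The male tract list, with 6 of 8 genes in the tables, summed to 196.7 CPM in animal 11 and 99.1 CPM in animal 13. PCB 52 animal 23 had the highest sum, 303.8 CPM, with Hoxb7 at 10.7 CPM. Sbp was at 0 in all male VAT. The mammary epithelium list, which holds general epithelial genes, summed to 483.3 and 408.7 CPM in animals 11 and 13, against 12.5 to 76.2 CPM in the other male VAT libraries. The part of these cells in the Hox levels was not tested.

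Hoxa2 had 4.72, 11.4 and 20.1 CPM in male VAT sham, against 2.32, 2.96 and 4.31 CPM in female VAT sham, with no overlap (1.86, SE 0.37, adjusted p = 0.00045). Hoxa4 was higher in male VAT by 1.09 (adjusted p = 0.044) and Hoxc9 lower by -2.02 (adjusted p = 0.033), and these calls were lost in 8 and 7 of 12 fits with 1 rat left out. In SAT, Hoxa7 had 4.79, 11.5 and 24.6 CPM in male sham rats, against 3.10, 3.36, 0, 4.78 and 5.93 CPM in female sham rats (1.83, SE 0.55, adjusted p = 0.010). Male SAT sham libraries ran from 10.5 to 274694 CPM of mammary epithelium markers, whose part in this difference was not tested. Hoxb3 (-1.64) and Hoxd4 (-2.14) were called lower in male SAT, and both calls rested on female animal 8. Without the 8 libraries the values were -0.57 (adjusted p = 0.15) and 0.18 (adjusted p = 0.81).

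Whether a depot difference itself differed between the sexes was tested as an interaction, given as male minus female. For SAT over VAT 4 genes were positive and 4 negative, against 24.6% of all genes called, 9.5% positive and 15.1% negative. Positive values were found for Hoxa11 (5.76, SE 1.4, adjusted p = 0.0031), Hoxc9 (2.68, adjusted p = 0.022), Hoxc10 (5.64, SE 1.1, adjusted p = 0.00023) and Hoxc11 (5.77, SE 1.3, adjusted p = 0.0014). The high-numbered genes Hoxb9, Hoxd9 and Hoxd10 were tested too and were not called. Hoxa11, Hoxc10 and Hoxc11 passed the filter only through groups in which they were high, so these calls support nothing about a paralogue class. The size for Hoxc11 depends on the prior count of the fit, since male VAT sham had no read of it. Each of these 4 stayed called with the animal as a block and without the 8 libraries. Negative values were found for Hoxb3 (-2.96, adjusted p = 2.6e-05), Hoxb7 (-2.52), Hoxb8 (-3.81) and Hoxd4 (-2.40). Of these, Hoxb3 stayed called under both, Hoxb7 lost its call without the 8 libraries (adjusted p = 0.066), Hoxb8 with the block (adjusted p = 0.099) and Hoxd4 under both (0.36 and 0.93 as adjusted p). For BAT over SAT 2 genes were called, both positive, against 10.4% of all genes (7.09% positive and 3.28% negative), Hoxb3 (1.68, adjusted p = 0.031) and Hoxd4 (2.41, adjusted p = 0.038). Neither was called without the 8 libraries (adjusted p = 0.38 and 0.94) or with the block (0.22 and 0.41 as adjusted p). For BAT over VAT Hoxa2 alone was called, as negative, against 0.634% of all genes (0.333% positive and 0.301% negative). Hoxa11, Hoxc10 and Hoxc11 had no read in sham BAT of either sex, so edgeR gave no usable error for them there, and DESeq2 gave adjusted p = 0.019, 0.057 and 0.025.

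Within BAT the Hox genes also varied from rat to rat. Hoxc8, a thoracic gene, ran from 0.222 to 12.8 CPM in male BAT sham and from 0.43 to 18.1 CPM in female BAT sham. This spread was set against the summed brown adipocyte markers over the 12 BAT libraries of each sex, for the 13 Hox genes tested in BAT, with skeletal muscle markers beside it, a comparison chosen after the data were seen. It made 52 correlations on log2(CPM + 0.5), each with a permutation test of 100000 resamples, two-sided, and p-values adjusted over the 52.

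Of the 26 correlations with brown adipocyte markers 3 passed the adjusted threshold by Pearson's r, which were Hoxa4 in males (positive) and Hoxc4 and Hoxc8 in females (negative). By Spearman's rho 6 passed, of which Hoxb4 in males was positive and Hoxc8 in males and Hoxc4, Hoxc5, Hoxc8 and Hoxc9 in females were negative. Hoxa4 passed by rho in neither sex. For Hoxa4 Pearson's r was 0.805 in males (permutation p = 0.00154, adjusted p = 0.0267; Spearman's rho 0.678, permutation p = 0.0181, adjusted p = 0.0859) and 0.872 in females (permutation p = 0.00671, adjusted p = 0.0698; rho 0.580, permutation p = 0.0521, adjusted p = 0.194). Without the 2 rats farthest from the median marker level r was 0.684 in males and 0.630 in females. For Hoxc4 r was -0.733 in males (permutation p = 0.0057, adjusted p = 0.0698; rho -0.741, permutation p = 0.00776, adjusted p = 0.0518) and -0.655 in females (permutation p = 0.00107, adjusted p = 0.0267; rho -0.888, permutation p = 0.00021, adjusted p = 0.0109), and without the 2 rats it was -0.646 and -0.905. For Hoxc8 r was -0.682 in males (permutation p = 0.0142, adjusted p = 0.103; rho -0.846, permutation p = 0.00111, adjusted p = 0.0148) and -0.631 in females (permutation p = 0.00135, adjusted p = 0.0267; rho -0.839, permutation p = 0.00114, adjusted p = 0.0148), and without the 2 rats -0.569 and -0.739. For Hoxc9 r was -0.675 in males and -0.559 in females, with adjusted p = 0.103 and 0.11 by the permutation test, and rho was -0.736 in males and -0.816 in females, with adjusted p = 0.0518 and 0.0207. Hoxc5 in females had a rho of -0.860 (adjusted permutation p = 0.0148) and an r of -0.475 (adjusted permutation p = 0.450). Hoxc4 and Hoxc5 both overlap Hoxc6 in RefSeq, which was not analysed, and whether strand was used in counting is not known. The counts of Hoxc4 and Hoxc5 are therefore uncertain. Hoxb4 in males had a rho of 0.783 (adjusted permutation p = 0.0333) and an r of 0.666 (adjusted permutation p = 0.103).

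Other marker lists moved with the brown adipocyte sum too. The 6 adipose progenitor and fibroblast markers summed to 5442 to 24543 CPM in male BAT and 4480 to 20327 CPM in female BAT, and ran against the brown sum, with r of -0.626 in males (rho -0.811) and -0.763 in females (rho -0.874). The adjusted permutation p was 0.0582 for r and 0.00707 for rho in males, and 0.0005 and 0.00205 in females, over 10 relations of 5 lists. Without the 2 farthest rats r was -0.768 in males and -0.846 in females. The nerve sum also ran against it in males (r -0.867, rho -0.874, adjusted permutation p = 0.0022 and 0.00205), as did the lymph node and B cell sum in females (r -0.709, rho -0.797, adjusted permutation p = 0.0427 and 0.00757). The general adipocyte sum passed in males by r alone (r -0.802, adjusted permutation p = 0.0109; rho -0.545, adjusted permutation p = 0.119). The part of these cells in the Hox relations was not tested.

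Of the 26 with skeletal muscle markers none passed by either, with r from -0.335 to 0.53 and a lowest permutation p of 0.081. With each treatment centred on its own mean the brown values were 0.812 for Hoxa4, -0.786 for Hoxc4 and -0.706 for Hoxc8 in males, and 0.906, -0.674 and -0.678 in females. The female value of Hoxa4 leaned on PCB 52 animal 24, the library with 195.1 CPM of brown adipocyte markers, which had 13.7 CPM of Hoxa4, against 32.7 CPM or more in the other female BAT libraries.

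**Figure D4:**
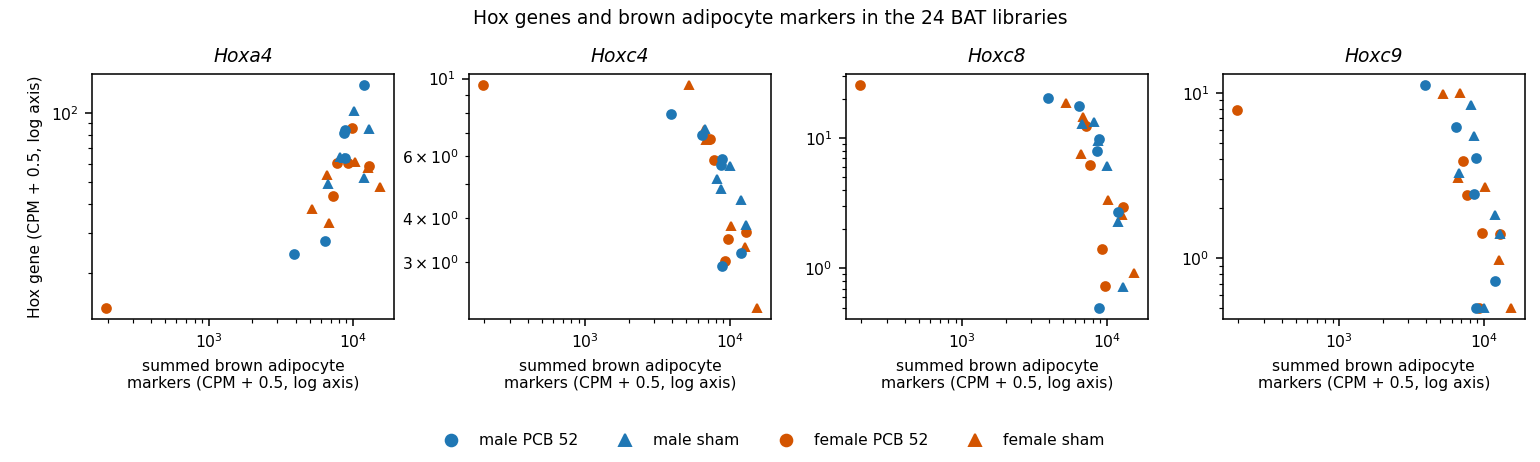
CPM + 0.5 of Hoxa4, Hoxc4, Hoxc8 and Hoxc9 against the summed brown adipocyte markers (CPM + 0.5) in the 24 BAT libraries, both axes logarithmic, with colour for sex and shape for treatment. In each sex r is positive for Hoxa4 and negative for the 3 Hoxc genes, and the single point at the far left is female PCB 52 animal 24.

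The study asks how inhaled PCB 52 changes gene expression in fat, here tested against sham separately for each sex in each depot. No Hox gene was called by edgeR in any of the 6 comparisons, against 0% of all genes in each. Of the genes tested, 13 in male BAT, 15 in male SAT, 17 in male VAT, 13 in female BAT, 17 in female SAT and 20 in female VAT, the numbers with an unadjusted p under 0.05 were 1, 1, 0, 0, 1 and 3. Over all genes these numbers were 1054 of 10687, 165 of 11459, 715 of 11357, 388 of 10686, 605 of 11824 and 1066 of 11143. DESeq2 called 1, Hoxc10 in female VAT, and none in the other 5. With both sexes in one fit and sex as a term, none of 15 genes in BAT, 19 in SAT and 21 in VAT was called by edgeR, against 0.00906%, 0% and 0% of all genes. Of them 0, 1 and 3 had an unadjusted p under 0.05, against 1215 of 11032, 333 of 12157 and 804 of 11664 genes in all.

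Hoxc10 in female VAT had the smallest p of the 6 comparisons. It had 20.4, 24.0 and 26.8 CPM (lowest, median, highest) in female VAT PCB 52, against 11.1, 17.04 and 18.97 CPM in sham, and the groups did not overlap. The difference was 0.59 (SE 0.14, unadjusted p = 0.00095), with an adjusted p of 0.34 by edgeR. Hoxd9 in the same depot had 14.8, 20.6 and 22.3 CPM after PCB 52, against 9.49, 14.95 and 16.6 CPM in sham (0.46, SE 0.15, unadjusted p = 0.0091 and adjusted p = 0.48 by edgeR). Hoxa11 stood at 13.4, 21.9 and 35.9 CPM after PCB 52, against 0, 13.4 and 25.02 CPM in sham, where animals 4 and 8 were the low ones. Neither Hoxc10 nor Hoxd9 nor Hoxa11 passed edgeR's threshold. Hoxc10 is described because its p was the smallest, and the share of all genes whose groups did not overlap is not given here.

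In female SAT the smallest p belonged to Hoxd4 (-2.67, SE 0.99, unadjusted p = 0.020 by edgeR) and Hoxb3 (-1.07, unadjusted p = 0.083), and Hoxd4 stood at -0.33 without the libraries treated apart, animal 8 being a sham rat. In male SAT they were Hoxd9 (2.04, unadjusted p = 0.044 by edgeR) and Hoxd4 (1.08, unadjusted p = 0.20). PCB 52 animal 19 held 149 CPM of Hoxd9 and 69.0 CPM of Hoxd10, against medians of 7.67 and 0.253 CPM in its group, and without it Hoxd9 stood at -0.01. In male BAT they were Hoxd9 (-0.52, unadjusted p = 0.026 by edgeR) and Hoxd4 (-0.26, unadjusted p = 0.11), in female BAT Hoxa2 (0.24, unadjusted p = 0.34) and Hoxd9 (0.24, unadjusted p = 0.40). In male VAT they were Hoxa2 (-0.75, unadjusted p = 0.058 by edgeR) and Hoxc5 (-0.48, unadjusted p = 0.060). With sex as a term the smallest were Hoxd4 (-0.17, unadjusted p = 0.14) and Hoxa2 (0.26, unadjusted p = 0.19) in BAT, Hoxd10 (2.65, unadjusted p = 0.033) and Hoxd3 (1.32, unadjusted p = 0.060) in SAT, and Hoxc5 (-0.44, unadjusted p = 0.0093) and Hoxd10 (1.34, unadjusted p = 0.014) in VAT, all by edgeR. None had an adjusted p under the threshold.

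**Figure D5:**
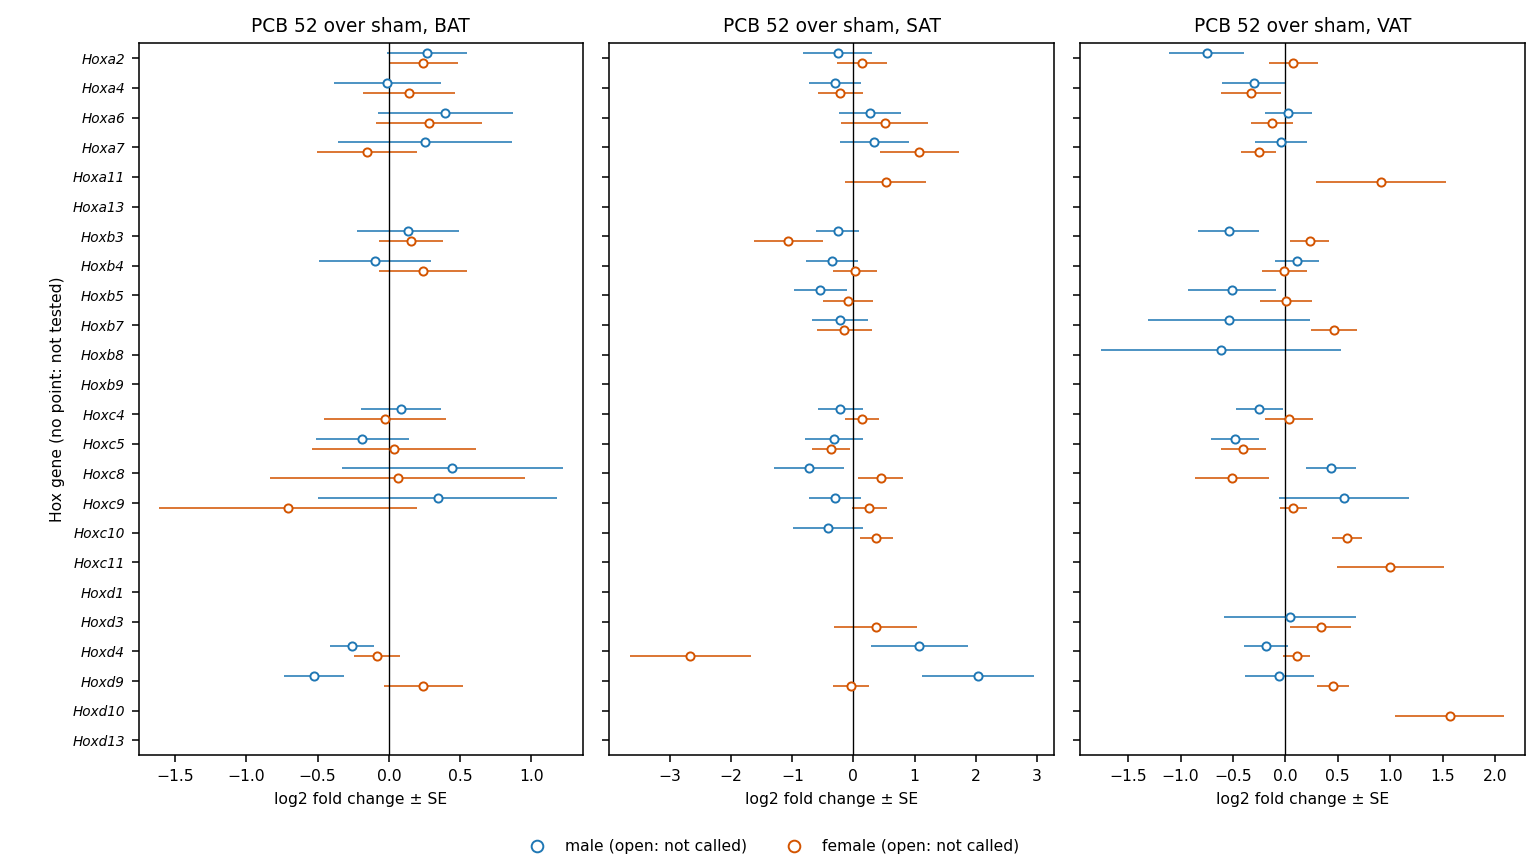
Log2 fold change of PCB 52 over sham, with SE, of the tested Hox genes among the same 24 in BAT, SAT and VAT, males above females for each gene. All points are open, since no Hox gene reached an adjusted p under 0.05.

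The tables hold 9 rows that lie inside the clusters and are not Hox genes, and 5 of them were tested. Mir196b, whose sequence is given above, is counted here as the row of its hairpin locus in mRNA libraries, which says nothing of the mature miRNA. It had no read in BAT sham and was at least 37.2-fold lower than in SAT in males (adjusted p = 6.7e-05) and at least 26.0-fold lower in females (adjusted p = 0.00024). In VAT it had 0, 0.232 and 0.965 CPM in male sham rats, against 1.31, 5.30 and 7.81 CPM in female sham rats (-3.80, SE 0.96, adjusted p = 0.0071). Hoxa11-as, the transcript antisense to Hoxa11, was also lower in male VAT (-4.68, SE 1.1, adjusted p = 0.0040), with 0, 0 and 0.928 CPM, against 0, 5.06 and 10.001 CPM in female VAT. Hotairm1, a noncoding RNA of the Hoxa cluster, was higher in male VAT than in female VAT (1.40, adjusted p = 0.0049) and in BAT than in SAT of females (1.31, adjusted p = 0.0025).

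Genes that flank the clusters showed no single direction. Of 15 tested, 5 were higher and 3 lower in BAT than in SAT of males, and 4 were higher and 4 lower in females, where 49.5% and 55.2% of all genes were called. The TALE cofactors, with which Hox proteins bind DNA, had 8 tested genes of 9 listed. None was higher in BAT than in SAT and 4 were lower in males and 3 in females, against 28% and 32.7% of all genes called lower, and 5 were lower than in VAT in males and 3 in females, against 23.7% and 15.1%. Pbx2 was lower in BAT than in SAT by -0.76 (SE 0.15, adjusted p = 2.4e-05) in males and -0.48 (SE 0.15, adjusted p = 0.0062) in females. Meis1 was lower in BAT than in VAT by -1.36 in males and -1.42 in females, and lower in SAT than in VAT by -1.54 and -1.44.

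Chromatin regulators of the Polycomb and Trithorax systems, which keep Hox genes silent or active, had 14 tested genes of 19 listed, with 5 higher and 3 lower in BAT than in SAT of males and 4 higher and 6 lower in females, again against 49.5% and 55.2% of all genes called. Of the 14, 3 were higher and 3 lower in BAT of both sexes, so the list showed no single direction. Those lower included the Polycomb genes Cbx7 (-1.61 in males, -2.15 in females) and Ezh2 (-0.85 and -1.95). Those higher included the H3K27 demethylase gene Kdm6b (0.90 and 1.46). Of other transcription factors used regionally, 29 of 40 listed were tested, and 7 were higher and 8 lower in BAT than in SAT of males, 6 higher and 10 lower in females, against the same shares. Zic1, a marker of dorsal, brown-fat origin, was higher in BAT than in SAT 803-fold in males, where SAT sham held 1 read of it (95% counting interval 144 to 31778), and at least 232-fold in females, where SAT sham held none. Tbx15 was higher in SAT than in VAT at least 467-fold in males, with no read in VAT sham, and by 4.82 on the log2 scale in females.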

How the data were processed

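Counts were analysed for 70 adipose RNA-seq libraries of 24 rats. Gene counts, whole numbers as deposited, fill 6 tables, 1 per sex and depot; the female VAT table was read as estimated counts as deposited, because 5 lines below its genes, which name no gene and were left out, are not all whole. Its gene lines are whole and needed no rounding. The submitters' processing notes name HISAT2, FastQC and rn6, a rat build; of the counter, its annotation and its strand setting nothing is given in the sources used here. Per the labels' protocols, samples needed an RNA integrity number of at least 8. Of the gene numbers, 15230 matched RefSeq's GRCr8 table and 89 did not; that build is not rn6, so GRCr8 positions are printed only for RefSeq's own sequences. Of the 25 genes, 8 overlap another RefSeq gene. No per-sample column was left unused.

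Counts were tested with edgeR 4.0.16 (R 4.3.3; TMM, default filter on low counts, robust quasi-likelihood test, Benjamini-Hochberg adjustment, threshold 0.05). Depots and sexes were compared in sham rats in 1 fit of 12 groups, which share one estimate of spread; PCB 52 was compared with sham in each table and with sex as a term. The scripts were tested on simulated data. CPM are counts over TMM-adjusted library sizes. Where a group had no reads, ratios are bounds from 3 reads over that group; fitted values depend on a prior count of 0.125. Since nothing in the labels says more than that libraries are separate samples, p-values measure the spread between these samples, and floors and counting intervals cover counting error only.

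Title numbers 1 to 24 keep 1 sex and 1 treatment in each depot and were read as the same rat, an inference from the titles. As a check, residuals from the group means over 10380 genes had a median correlation of 0.0866 in 68 pairs with equal numbers (31 over 0.1) and of -0.0239 in 340 pairs with unequal numbers. No 2 libraries of a group were duplicates (170 pairs, lowest chi-square per gene 7.25).

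Values are given per library for genes called in both sexes with the same sign, up to 3 each way per depot comparison, and for up to 5 genes called in a sex or treatment test; in treatment tests without a call the 2 genes of smallest p are named. Values of a few genes are not reported here. Members, gene lists and this rule were chosen with earlier results of these data known. The 8 libraries treated apart also came from those results. The correlations with marker genes in BAT and the list of uterus, oviduct and ovary markers were chosen after seeing the data. Alternatives were DESeq2 1.42.0 with its size factors, no filter on low counts, only sham libraries, the animal as a block, leaving out each rat, and leaving out the 8 libraries.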

Additional observations from a re-analysis of the deposited data

Results flagged for a closer look

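A screen for single libraries far from the others covered 13 of the 25 Hox genes, and the rest were not screened. In 17 of its 131 combinations of gene and group with at least 10 reads, 1 library was flagged. The measure was the gap between neighbours over the whole range, and chance would flag about 5% of the combinations checked. Male VAT held the most flags. Sham animal 11 was high in Hoxb8 (35.54 CPM), Hoxc9 (17.45 CPM), Hoxc10 (2.293 CPM) and Hoxd3 (13.5 CPM) and low in Hoxa4 (8.535 CPM, against 25.34 to 32.26 CPM in the others). PCB 52 animal 13 was high in Hoxb3 (28.85 CPM), Hoxb7 (40.87 CPM), Hoxb8 (18.41 CPM) and Hoxc10 (3.087 CPM). Both libraries also stood out in male tract and epithelial markers, whose part in the Hox levels was not tested.

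Hoxd4, whose span overlaps the Mir10b locus in RefSeq, had 5 of these flags. They were 171.7 CPM in female SAT sham animal 8, 74.53 CPM in male SAT PCB 52 animal 19, 12.58 CPM in female SAT PCB 52 animal 18, 43.05 CPM in male VAT sham animal 7 and 24.09 CPM in male BAT sham animal 5. Female SAT sham animal 8 was also high in Hoxb3 (97.67 CPM), and male SAT PCB 52 animal 19 in Hoxd3 (27.22 CPM, against 0.7476 to 2.432 CPM in the others). Female VAT sham animal 4 was high in Hoxb8, at 1.835 CPM.

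Depot differences that differed between the sexes in sham rats are given as male minus female log2 values with edgeR's adjusted p. For SAT over VAT they were 5.76 for Hoxa11 (adjusted p = 0.003115), 2.675 for Hoxc9 (adjusted p = 0.0224), 5.637 for Hoxc10 (adjusted p = 0.0002334) and 5.772 for Hoxc11 (adjusted p = 0.001438), whose size depends on the prior count since male VAT sham had no read. Negative ones were -2.964 for Hoxb3 (adjusted p = 2.553e-05), -2.515 for Hoxb7 (adjusted p = 0.004357), -3.809 for Hoxb8 (adjusted p = 0.008454) and -2.404 for Hoxd4 (adjusted p = 0.01934). For BAT over SAT they were 1.68 for Hoxb3 (adjusted p = 0.03108) and 2.414 for Hoxd4 (adjusted p = 0.03795), and for BAT over VAT -2.011 for Hoxa2 (adjusted p = 0.0448).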

How the results depend on the processing

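Of 88 called values of single Hox genes, 63 kept their call and direction under every alternative run for them, and 2 turned their sign in at least one. The 2 were those of Hoxd4. Its BAT over SAT value in females was 0.053 with the animal as a block, 1.022 without the 8 libraries treated apart and from -1.539 to 1.032 with 1 rat left out, the highest without female SAT sham animal 8. Its male over female value in SAT was 0.181 without the 8 libraries and from -2.502 to 0.179 with 1 rat left out, the highest without that animal. DESeq2 kept all 88 calls, 85 were kept with no filter on low counts, and 75 without the 8 libraries (11 lost).

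With the animal as a replicate block, 11 Hox genes were called for BAT over SAT, 12 for BAT over VAT and 9 for SAT over VAT in females, and 7, 9 and 14 in males. The pairing comes from the title numbers, and it left 0 genes for the sex difference of BAT over SAT (2 without it), 0 for BAT over VAT (1) and 6 for SAT over VAT (8). No paired analysis was possible for PCB 52 against sham or for male against female because these groups share no animal numbers.

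Counts of called genes that moved more were those for male over female in BAT with DESeq2 (1, against 0), male over female in SAT without the 8 libraries (1, against 3), the sex difference of BAT over SAT without the 8 libraries (0, against 2), and that of BAT over VAT with no filter (0), without the 8 libraries (2) and with DESeq2 (4), against 1. For PCB 52, the joint fit of 70 libraries called 1 gene in female SAT (Hoxd4) and 2 in male SAT (Hoxd9 and Hoxd10), and DESeq2 1 in female VAT, against 0 each. Female SAT sham animal 8 held 171.7 CPM of Hoxd4, against 1.55 to 14.7 CPM in the other sham rats. Male SAT PCB 52 animal 19 held 149 CPM of Hoxd9 and 69.0 CPM of Hoxd10, against at most 11.9 and 1.28 CPM in the others of its group. The cause of these calls was not tested.

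Leaving out 1 rat at a time gave 10 to 12 genes for BAT over SAT, 11 to 12 for BAT over VAT and 7 to 10 for SAT over VAT in females. In males it gave 6 to 8, 8 to 11 and 12 to 14. For male over female it gave 0 in BAT, 1 to 4 in SAT and 7 to 9 in VAT, and 0 for PCB 52 in every comparison so tested. Single calls lost without 1 rat are given with their highest adjusted p by edgeR. For BAT over SAT they were Hoxa6 (0.077, female SAT animal 2), Hoxb9 (0.13, female SAT animal 10), Hoxc9 (0.066, female BAT animal 8) and Hoxd4 (0.080, female BAT animal 2) in females and Hoxa11 (0.054, male SAT animal 9) in males. For BAT over VAT they were Hoxb9 (0.20), Hoxc10 (1) and Hoxd3 (0.25) in males, each without VAT animal 11. For SAT over VAT they included Hoxb5 (0.11, SAT animal 2) and Hoxc11 (0.078, VAT animal 6) in females, and Hoxc9 (0.077, VAT animal 7) and Hoxd3 (0.12, VAT animal 11) in males. For male over female they were Hoxb3 (0.22) and Hoxd4 (0.86) in SAT without female animal 8, and Hoxa4 (0.11, female animal 12), Hoxb8 (0.14, male animal 11) and Hoxc9 (0.087, male animal 7) in VAT. Hoxa13, Hoxd1 and Hoxd13 had too few reads to be tested, and calls of genes under 1 CPM, such as Hoxb9, rest on few reads.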
